A study of Capra hircus with 9 samples.

Results

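Cytosolic ribosomal protein genes encode the protein part of the ribosome that translates nuclear messages, and this account follows 77 of them through the rumen epithelium of goats on 3 diets. They were chosen by name, as the genes listed in all 9 files under a symbol of the RPL, RPS, RPLP or RPSA form without the S6 kinases. They make up 77 of 18383 genes in the deposited files. Of these, 46 belong to the large subunit and 31 to the small subunit. One further name matched, RPL3L, the paralogue of RPL3 known from striated muscle. It was listed in only 4 libraries, at 0.0533 FPKM in HC1, 0.0402 FPKM in LC1, 0.0958 FPKM in LC2 and 0.0557 FPKM in LC3, and was left out. The rule set no threshold on level, but a gene had to be listed in every file, which RPL3L at its low level was not. Earlier results of these data were known when the members were chosen.

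A ribosome holds 1 copy of most of these proteins, apart from the stalk proteins RPLP1 and RPLP2, which sit on RPLP0 in pairs and help recruit translation factors. Their messages are short and very abundant, and in mammals they carry an oligopyrimidine tract at the start that places their translation under the control of the mTOR pathway. The rumen epithelium is a stratified epithelium that absorbs the acids made by microbial fermentation, and its basal layer divides to replace the cells shed above it.

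The libraries came from total RNA of rumen epithelium taken from goats (Capra hircus) at 4 months of age, 3 from each of the diets named HC, MC and LC. The series says that the goats received concentrate diets of 3 types and does not explain the letters, which are used here as names, as in HC1 for the library numbered 1 of diet HC. No other treatment or genotype is given, and the labels do not say whether each library is 1 animal or a pool. Every p-value below therefore measures the spread between these samples, which may be technical. The values are FPKM, fragment counts corrected for transcript length and for the total mapped. The files hold no counts, so depth is unknown. In bulk tissue, fewer cells of a type and less RNA per cell cannot be told apart.

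The basal keratins KRT5 and KRT14 were abundant in every library, at 2696 to 4803 FPKM and 925 to 1623 FPKM. Summed FPKM came to 962868 to 1051183 in HC, 903006 to 910750 in MC and 755624 to 1030724 in LC, where LC1 was lowest. Genes of the mitochondrial genome held 9.15% to 13.9% of it, with HC1, MC1 and LC1 highest within their diets. The 3 libraries numbered 1 also stood apart in their low values. Among genes under 0.05 FPKM in both libraries of a pair, the ratio between the pair fell in 1 narrow step, 0.02 wide on the log2 scale, for 21.7% to 44.8% of genes in the 15 pairs among the libraries numbered 2 and 3. In the 21 pairs with a library numbered 1 the fullest step held 2.78% to 8.08%. A shared step is what genes with the same small number of fragments give when 2 libraries were counted alike. The labels record no difference in handling. The main results of the members are given with and without the libraries numbered 1, and those of other gene lists where stated.

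The members were among the highest genes of the tissue. They took 5 of the 10 highest places by mean FPKM among 11668 genes tested, 30 of the first 50 and 73 of the first 200. Averaged over the 9 libraries, 73 members ran from 678 to 14302 FPKM with a median of 3763 FPKM, against a median of 8.82 FPKM over all genes tested. The other 4 were paralogues whose symbols end in L or L1, at 26.2 FPKM for RPL7L1, 50.5 FPKM for RPL22L1, 52.2 FPKM for RPL26L1 and 112 FPKM for RPS27L. No member lay between these sets.

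The highest member was RPS29, a small zinc-binding protein of the small subunit, with 17102, 15412 and 15339 FPKM in HC, 13116, 12374 and 11393 FPKM in MC, and 11208, 16597 and 16176 FPKM in LC. All HC values lay above all MC values, while LC ran from below both to above most. RPL36 and RPL35 of the large subunit followed at means of 10195 and 10146 FPKM over the 9 libraries, and RPS28, RPS27, RPLP1, RPS2, RPL13A and RPLP2 were also among the 10 highest members, the last at 6440 FPKM. RPS29 alone made up 4.81% of the members' summed level. The genes are short, with a median span of 3717 bp in the files against 19680 bp over all genes tested.

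They are also scattered. Of the 77, 76 lie on 27 chromosomes, with 9 on chromosome 18 and 6 each on chromosomes 7 and 19, and RPL10 lies on a sequence not placed on a chromosome. The RefSeq table for goat holds 76 of the 77, with 75 on the chromosome that it gives and RPL10 unplaced there too. Each sequence of the files took the chromosome that this table gives most often for its genes, so the agreement is partly built in. In the files 3 members share their locus with another gene, RPL5 with FAM69A, RPS6 with DENND4C and RPS19 with LOC102175154, so their values are less certain. Mammalian ribosomal protein genes have many processed pseudogenes of near-identical sequence, and how the authors' pipeline placed reads that fit several copies is not stated. Levels of single members carry that uncertainty throughout.

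Together the members held 26.9% to 35.3% of the summed FPKM of a library, with the largest mean share in HC. The share was 32.1%, 35.3% and 34.2% in HC1, HC2 and HC3, against 28.4%, 30.8% and 29.1% in MC1, MC2 and MC3, and 26.9%, 32.4% and 31.8% in LC1, LC2 and LC3. No HC library overlapped an MC library, and LC2 lay just above HC1. The means were 33.9% ± 1.61 in HC, 29.5% ± 1.26 in MC and 30.4% ± 3.01 in LC (SD, n = 3 each). HC exceeded MC by 4.39 percentage points and LC by 3.49, and MC lay 0.898 points below LC, beside a pooled SD within diets of 2.10 points. The last difference is within the spread. An exact permutation test of the share over the 3 diets gave p = 0.1. For the pairs the exact p was 0.1 in HC minus MC, 0.2 in HC minus LC and 0.7 in MC minus LC. For a pair, 0.1 is the smallest that 3 against 3 libraries can give.

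The library numbered 1 had the smallest share in each diet. Among the libraries numbered 2 and 3 alone the order was HC, then LC, then MC, with no overlap: HC exceeded LC by 2.64 points and MC by 4.73, and MC lay 2.09 points below LC. A share alone cannot tell fewer transcripts of the members from more transcripts of other genes. The FPKM of all other genes summed to 653762 to 690329 in HC, 624441 to 649828 in MC and 552341 to 703353 in LC.

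**Figure D1:**
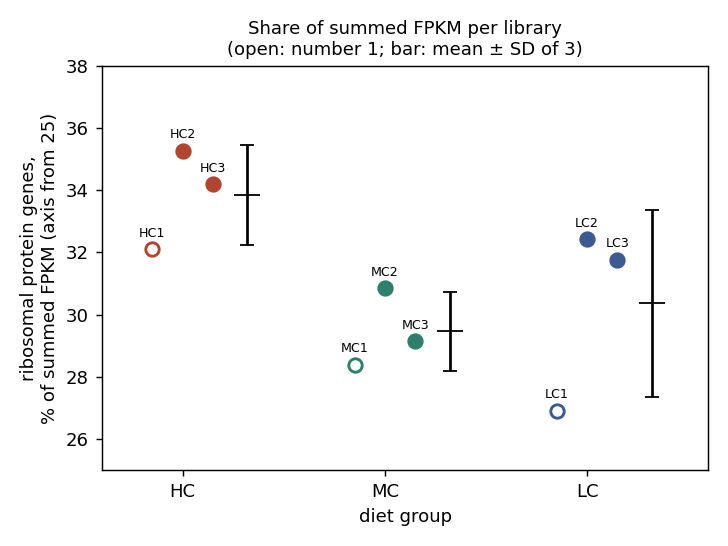
Share of summed FPKM held by the 77 ribosomal protein genes (vertical axis, percent, starting at 25) in each library by diet. Open points are the libraries numbered 1, filled points those numbered 2 and 3, and bars give the mean ± SD of 3; every HC point lies above every MC point, and LC1 is the lowest of all at 26.9%.

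Both subunits took part. Large-subunit genes held 18.8% ± 1.19 of summed FPKM in HC, 16.3% ± 0.788 in MC and 16.8% ± 1.72 in LC, and small-subunit genes 15.0% ± 0.422 in HC, 13.2% ± 0.492 in MC and 13.5% ± 1.29 in LC. The ratio of the summed large to the summed small subunit was 1.25 ± 0.0466 in HC, 1.24 ± 0.0246 in MC and 1.24 ± 0.0102 in LC (SD, n = 3 each). The diets' means differed by at most 0.0138, under the pooled SD within diets of 0.0310. An exact permutation test of this ratio over the 3 diets gave p = 0.864.

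HC minus MC was the comparison in which most members moved one way. In limma's test over all 9 libraries and 11668 genes, RPLP0, RPS2 and RPL38 rose and RPL7L1 fell at an adjusted p under 0.05, so 3 of 77 members were higher, against 8.0% of all genes tested, and 1 was lower, against 17.0%. The log2 change lay above 0 for 74 of 77 members, against 39.6% of all genes tested. The median member change was 0.34 on the log2 scale, and the median over all genes tested was -0.10. In 52 members every HC library lay above every MC library, which held for 14.7% of all genes tested, and in 2 the order was the opposite, which held for 31.6%. At an unadjusted p under 0.05, 19 were higher, against 12.8% of genes, and 1 was lower, against 26.4%.

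RPLP0, the base of the large subunit's stalk (chromosome 17, 62183025 to 62186981), had 3829, 6056 and 5306 FPKM in HC, 2709, 2728 and 3172 FPKM in MC, and 2616, 3855 and 3600 FPKM in LC. All HC libraries stood above all MC libraries, and HC1 below LC2. The log2 change was 0.80 ± 0.22 (SE) in HC minus MC, with an adjusted p of 0.0222 from limma. It was 0.59 ± 0.22 in HC minus LC (adjusted p = 0.0710, limma) and -0.21 ± 0.22 in MC minus LC (adjusted p = 0.497, limma).

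RPS2, a protein of the small subunit near the channel by which mRNA enters (chromosome 25, 1521267 to 1523032), had 7553, 10128 and 9045 FPKM in HC, 5496, 5224 and 5598 FPKM in MC, and 4918, 7830 and 7614 FPKM in LC. The HC and MC libraries did not overlap, and the MC libraries were close to each other. The log2 change in HC minus MC was 0.70 ± 0.22 (adjusted p = 0.0345, limma).

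RPL38, a small protein of the large subunit that mouse genetics ties to the translation of Hox messages (chromosome 19, 56001849 to 56006072), had 2420, 2899 and 3088 FPKM in HC, 2009, 1942 and 1850 FPKM in MC, and 1733, 2352 and 2028 FPKM in LC. Every HC library lay above every MC and every LC library. The log2 change was 0.53 ± 0.18 in HC minus MC (adjusted p = 0.0475, limma) and 0.46 ± 0.18 in HC minus LC (adjusted p = 0.0756, limma). Leaving out any 1 of the 6 HC and MC libraries except HC1 took the call from RPL38 and RPS2, and leaving out HC2, HC3, MC1 or MC2 took it from RPLP0, with adjusted p values of 0.0762 to 0.176; the direction held in each case. RPL38 also lost the call without LC2 or LC3 (adjusted p = 0.0511 and 0.0584, limma).

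RPS9, RPL36 and RPL29 had log2 changes in HC minus MC larger than that of RPL38, and did not pass the test in the 9 libraries. RPL36, described with the pool below, had a log2 change of 0.63 ± 0.23 (adjusted p = 0.0677, limma). RPS9, a protein of the small subunit, had 719, 983 and 848 FPKM in HC, 471, 564 and 565 FPKM in MC, and 384, 855 and 716 FPKM in LC (log2 change in HC minus MC 0.67 ± 0.26, adjusted p = 0.0818, limma). RPL29, a basic protein of the large subunit, had 2964, 3430 and 3260 FPKM in HC, 2117, 2257 and 2189 FPKM in MC, and 1647, 2811 and 2699 FPKM in LC (0.55 ± 0.21, adjusted p = 0.0734, limma). In RPS9 and RPL29 HC and MC were fully separate and LC spanned a wide range.

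**Figure D2:**
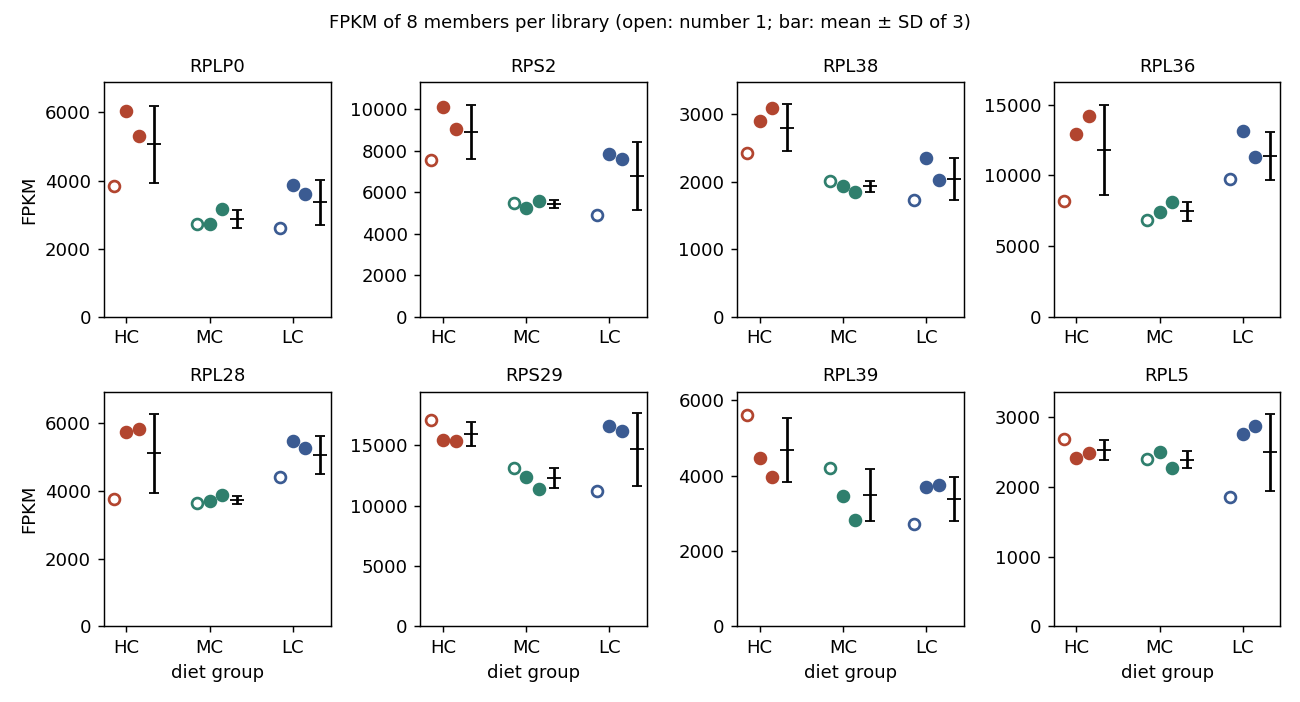
FPKM (linear axis from 0) of 8 members in each library, by diet. Open points are the libraries numbered 1, filled points those numbered 2 and 3, and bars give the mean ± SD of 3; RPLP0, RPS2 and RPL38 lie higher in every HC than in every MC library, RPL36 and RPL28 are low in all MC libraries and in HC1, RPL39 is highest in HC1, and RPL5 differs little apart from LC1 at 1861 FPKM.

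HC minus LC gave a similar median with few calls. In limma's test 0 members rose, against 7.79% of all genes tested, and 1, RPL7L1, fell, against 17.4%. At an unadjusted p under 0.05, 10 were higher, against 12.0% of genes, and 1 was lower, against 26.3%. The log2 change lay above 0 for 72 of 77 members, against 38.4% of genes, with a median of 0.31 for the members and -0.10 over all genes tested. Every HC library exceeded every LC library in 16 members, against 13.3% of genes, and the opposite held in 1, against 27.4%. The median rests in part on LC1: without that library it was 0.053.

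RPL36A, RPL13A, RPL35 and RPLP0 were among the 5 members with the largest changes in HC minus LC, at 0.49 to 0.59, and did not pass the test. RPL13A, which in human cells can leave the ribosome and join a complex that silences inflammatory messages, had 7317, 9516 and 8451 FPKM in HC, 5789, 6027 and 5840 FPKM in MC, and 4204, 7103 and 6934 FPKM in LC. All HC libraries exceeded all others, and LC1 was far below LC2 and LC3. RPL35 and RPL36A had 5542 and 1075 FPKM in LC1, their lowest values.

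In MC minus LC the members' median lay near 0 in the 9 libraries, and it moved when LC1 was left out. In limma's test 1 member rose, RPL26L1, against 16.2% of all genes tested, and 1 fell, RPL22L1, against 17.1%. The log2 change lay above 0 for 30 of 77 members, against 49.4% of genes, with a median of -0.043 for the members and -0.0067 over all genes tested. The libraries did not overlap for 1 member that was higher and 3 that were lower, against 23.8% and 23.4% of genes. Without LC1 the median was -0.28, and 29 members fell, against 18.8% of genes, and 0 rose, against 15.9%. In the test of all 3 diets together, limma's F test, 4 of 77 members passed, against 45.2% of genes.

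The member's library of lowest level was LC1 in 71 of 77 genes, and the library of highest level was HC2 in 38, LC3 in 18 and HC3 in 12. Against the mean of the libraries numbered 2 and 3 of the same diet, LC1 was lower in 77 of 77 members with a median log2 difference of -0.71, while the median over all genes tested was -0.066. HC1 was lower in 65 members with a median of -0.25, and MC1 in 55 with a median of -0.072. The members did not share 1 pattern here. RPL39, a very small protein that lines the exit tunnel, was highest in HC1 and MC1, with 5618, 4484 and 3966 FPKM in HC and 4202, 3470 and 2814 FPKM in MC, against 2710, 3700 and 3752 FPKM in LC. RPL36 had the largest drop in HC1, to 8190 FPKM beside 12893 and 14231 FPKM in HC2 and HC3.

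**Figure D3:**
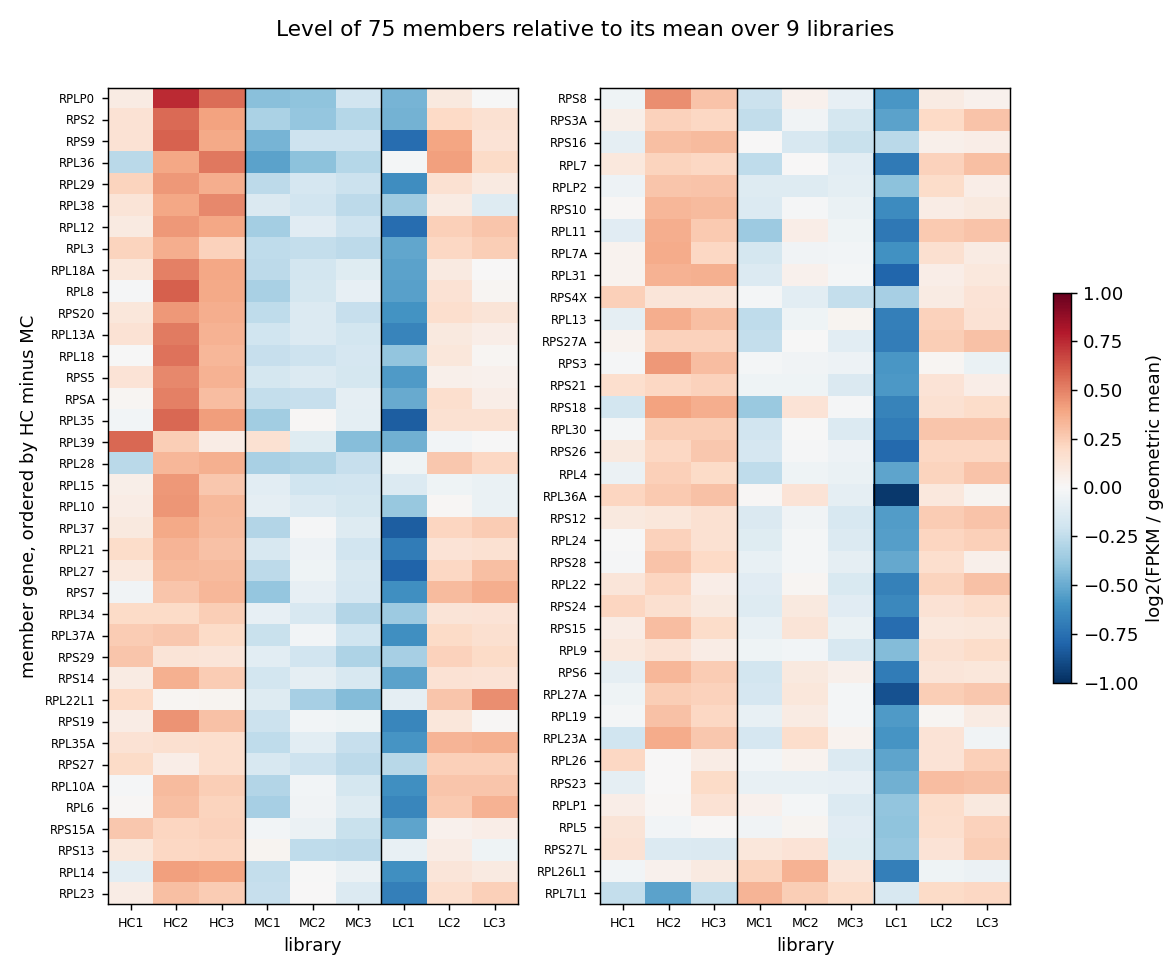
The 75 members drawn (rows, ordered from the highest to the lowest log2 change in HC minus MC, left panel first) in each of the 9 libraries (columns), as log2 of FPKM over the gene's geometric mean. Most rows are red in HC2 and HC3, pale blue in MC and dark blue in LC1; RPL7L1, at the bottom right, runs the other way in HC and MC.

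A fit of only the 6 libraries numbered 2 and 3, chosen after seeing the data, leaves 2 libraries per diet. In it 61 of 77 members rose in HC minus MC, against 11.1% of all genes tested, and 1 fell, RPL7L1, against 17.6%. The median was 0.36 for the members and -0.098 over all genes tested. Those higher included RPLP0 at 0.95 ± 0.10 (adjusted p = 4.81e-04, limma), RPS2 at 0.82 ± 0.079 (adjusted p = 3.46e-04, limma) and RPL36 at 0.81 ± 0.091 (adjusted p = 6.52e-04, limma). The 15 that passed in neither direction were RPL5, RPL9, RPL19, RPL22, RPL23A, RPL26, RPL26L1, RPL27A, RPL36A, RPLP1, RPS6, RPS15, RPS23, RPS24 and RPS27L.

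In the same 6 libraries 43 members fell in MC minus LC, against 17.2% of genes, and 0 rose, against 14.4%, with 1 higher at an unadjusted p under 0.05, against 19.9%. The median was -0.25 for the members and -0.014 over all genes tested. The falls included RPL36 at -0.65 ± 0.091 (adjusted p = 8.95e-04, limma), RPS2 at -0.51 ± 0.079 (adjusted p = 0.00138, limma), and RPL28, a large-subunit protein, at -0.51 ± 0.071 (adjusted p = 9.01e-04, limma). In HC minus LC 23 members rose, against 7.89% of genes, and 1 fell, RPL7L1, against 16.5%, with medians of 0.15 for the members and -0.11 over all genes tested. RPLP0 was the furthest at 0.61 ± 0.098 (adjusted p = 0.00262, limma), followed by RPL38 at 0.45 ± 0.091 (adjusted p = 0.00736, limma).

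A large part of the change was common to the genes, so each member was also fitted after every library was divided by its median ratio over the members, which sets their common shift aside. In HC minus MC, RPLP0 at 0.47 ± 0.12 (adjusted p = 0.00895, limma) and RPS2 at 0.37 ± 0.10 (adjusted p = 0.00962, limma) remained above the pool. RPL7L1 at -0.90 ± 0.20 (adjusted p = 0.00277, limma) and RPL26L1 at -0.52 ± 0.16 (adjusted p = 0.0217, limma) fell below it. Such calls covered 1.41% of genes higher and 25.2% lower, since every other gene is also measured against the pool.

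In MC minus LC relative to the pool, RPL26L1 was higher at 0.50 ± 0.16 (adjusted p = 0.0352, limma), against 8.52% of genes, and RPL36 and RPL28 were lower, against 6.8%. RPL36 had 8190, 12893 and 14231 FPKM in HC, 6810, 7413 and 8096 FPKM in MC, and 9735, 13117 and 11271 FPKM in LC, with a change relative to the pool of -0.59 ± 0.16 (adjusted p = 0.0281, limma). RPL28 had 3763, 5735 and 5825 FPKM in HC, 3637, 3687 and 3874 FPKM in MC, and 4423, 5481 and 5253 FPKM in LC, with -0.41 ± 0.13 (adjusted p = 0.0432, limma). In both genes no MC library reached any LC library, and HC1 lay far below HC2 and HC3. In HC minus LC relative to the pool, RPL7L1 at -0.71 ± 0.20 and RPS23, a protein of the decoding centre, at -0.32 ± 0.11 were lower (adjusted p = 0.0141 and 0.0460, limma), against 21.2% of genes, and 0 were higher, against 2.11%. At an unadjusted p under 0.05, 2 were higher, a count for which no share of all genes was computed.

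In the 6 libraries numbered 2 and 3 more members left the pool: 16 were higher and 8 lower in HC minus MC, against 3.16% and 52.4% of genes, 6 and 8 in MC minus LC, against 29.1% and 7.58%, and 12 and 10 in HC minus LC, against 4.92% and 24.1%. RPL5, which with RPL11 and a ribosomal RNA forms a particle that binds MDM2, was lower relative to the pool in both HC contrasts. It was at -0.33 ± 0.079 against MC (adjusted p = 0.00436, limma) and -0.32 ± 0.079 against LC (adjusted p = 0.0111, limma). RPL11 was at -0.07 ± 0.069 and -0.08 ± 0.069 relative to the pool in the same contrasts (adjusted p = 0.426 and 0.417, limma). Without the scaling to the members, RPL5 in these 6 libraries was at 0.03 ± 0.081 against MC and -0.20 ± 0.081 against LC (adjusted p = 0.772 and 0.0921, limma). In the 9 libraries RPL5 did not pass relative to the pool (adjusted p = 0.0990 and 0.0850, limma).

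Of the 4 paralogues, RPL7L1 passed limma's test in HC minus LC and HC minus MC in the 9 libraries. RPL26L1 and RPL22L1 passed in MC minus LC, and RPS27L in no contrast. Of all genes tested, 7.79% were higher and 17.4% lower in HC minus LC, and 8.0% and 17.0% in HC minus MC. In MC minus LC the shares were 16.2% and 17.1%. The partners passed in no contrast, like most of the members. RPL7L1, the paralogue of RPL7 that takes part in building the large subunit (chromosome 23, 16134186 to 16140780), had 21.8, 17.8 and 21.8 FPKM in HC, 32.7, 30.6 and 29.3 FPKM in MC, and 23.02, 29.4 and 29.6 FPKM in LC. All HC libraries lay below all others. The log2 change was -0.57 ± 0.14 in HC minus MC (adjusted p = 0.0107, limma) and -0.40 ± 0.14 in HC minus LC (adjusted p = 0.0491, limma). The HC minus LC call was lost with any 1 HC or MC library, LC2 or LC3 left out (adjusted p = 0.0573 to 0.168).

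RPL26L1, which differs little from RPL26 (chromosome 20, 4727897 to 4734385), had 50.5, 52.9 and 54.8 FPKM in HC, 59.8, 65.2 and 55.9 FPKM in MC, and 32.0, 49.8 and 49.4 FPKM in LC. The MC libraries were the highest 3. The log2 change in MC minus LC was 0.48 ± 0.17 (adjusted p = 0.0440, limma); without LC1 it was 0.27 (adjusted p = 0.0714, limma), and with any HC or MC library left out the adjusted p was 0.0518 to 0.139.

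RPL22L1, which in mice rises when its partner RPL22 is lost (chromosome 1, 94767350 to 94771715), had 56.9, 50.4 and 50.5 FPKM in HC, 45.4, 39.5 and 36.9 FPKM in MC, and 46.8, 60.0 and 68.4 FPKM in LC. Every MC library was below every other library. The log2 change in MC minus LC was -0.50 ± 0.15 (adjusted p = 0.0257, limma), and without MC2, MC3, LC2 or LC3 the adjusted p was 0.0748 to 0.0998. RPS27L, a target of p53 in human cells, had 123, 101 and 101 FPKM in HC, 121, 123 and 103 FPKM in MC, and 85.3, 123 and 133 FPKM in LC, with overlap among all diets and no call.

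Set against its partner in the same library, each paralogue's level does not depend on the scale of the library. RPL7L1 stood at 0.787%, 0.591% and 0.731% of RPL7 in HC, 1.51%, 1.18% and 1.22% in MC, and 1.46%, 0.974% and 0.934% in LC. RPL26L1 stood at 1.57%, 1.89% and 1.86% of RPL26 in HC, 2.18%, 2.28% and 2.196% in MC, and 1.65%, 1.62% and 1.49% in LC. RPS27L stood at 1.33%, 1.195% and 1.11% of RPS27 in HC, 1.67%, 1.76% and 1.53% in MC, and 1.28%, 1.29% and 1.39% in LC. In these 3 pairs every MC library was above every HC library. A ratio moves with either gene. In HC minus MC the log2 change was -0.09 for RPS27L and 0.35 for RPS27, so this ratio differed mostly through the partner. It was -0.57 for RPL7L1 and 0.29 for RPL7, and -0.19 for RPL26L1 and 0.14 for RPL26.

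RPL22L1 stood at 2.62%, 2.17% and 2.42% of RPL22 in HC, 2.45%, 1.95% and 2.05% in MC, and 3.73%, 2.57% and 2.80% in LC, with MC below LC in every library. An exact permutation test of the log2 ratio over the 3 diets gave p = 0.0107 for RPL7L1, RPL26L1 and RPS27L and p = 0.05 for RPL22L1, with adjusted values over these 4 ratios of 0.0143 and 0.05. With 1 library left out the exact p was 0.00357 to 0.0714 for RPL7L1, above 0.05 only without HC2 and at 0.05 without MC3. It was 0.0214 to 0.132 for RPL22L1, 0.00357 to 0.0214 for RPL26L1 and 0.00357 to 0.025 for RPS27L. In the libraries numbered 2 and 3 it was 0.0667 for each ratio, the smallest that 2 libraries per diet can give. The ratio in HC minus MC was -0.89 for RPL7L1, -0.33 for RPL26L1, -0.44 for RPS27L and 0.16 for RPL22L1 on the log2 scale. The exact p for that pair was 0.1 for RPL7L1, RPL26L1 and RPS27L, which is the smallest that 3 against 3 libraries can give, and 0.3 for RPL22L1. Without the libraries numbered 1 the same differences were -0.87, -0.25, -0.50 and 0.20.

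**Figure D4:**
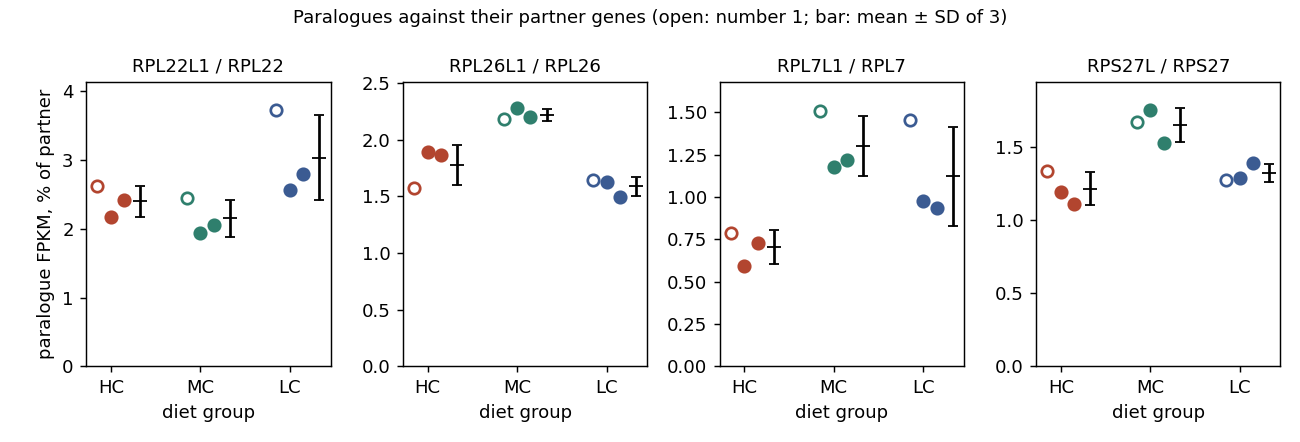
FPKM of each paralogue as a percentage of its partner's FPKM (linear axes from 0, one panel per pair) in each library, by diet. Open points are the libraries numbered 1, filled points those numbered 2 and 3, and bars give the mean ± SD of 3. As a percentage of its partner, RPL7L1 is lowest in HC, RPL26L1 and RPS27L are highest in MC, and RPL22L1 is highest in LC1 at 3.73%.

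RPSA, RPS6 and RPS27A, known for roles beyond the ribosome or its assembly, did not pass the test in the 9 libraries. RPSA, also known as the laminin receptor precursor, had 3837, 5362 and 4679 FPKM in HC, 3193, 3215 and 3539 FPKM in MC, and 2655, 4253 and 3944 FPKM in LC, with a log2 change of 0.47 ± 0.21 in HC minus MC (adjusted p = 0.126, limma). RPS6, the target of the S6 kinases, had 2437, 3267 and 3098 FPKM in HC, 2288, 2772 and 2694 FPKM in MC, and 1595, 2828 and 2800 FPKM in LC, with overlap among all diets. RPS27A, made as a fusion with ubiquitin, had 3450, 3944 and 3932 FPKM in HC, 2840, 3356 and 3125 FPKM in MC, and 2077, 3980 and 4121 FPKM in LC.

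The stalk proteins did not change to the same degree. RPLP1 had 7894, 7596 and 8316 FPKM in HC, 7782, 7450 and 6861 FPKM in MC, and 5748, 8525 and 8072 FPKM in LC, and its log2 change in HC minus MC was 0.11 ± 0.19 (adjusted p = 0.710, limma). RPLP2 had 6162, 7720 and 7753 FPKM in HC, 5828, 5830 and 5965 FPKM in MC, and 4791, 7254 and 6656 FPKM in LC, with 0.29 ± 0.20 (adjusted p = 0.309, limma). RPLP0, at 0.80, was the furthest of the 3; the differences between these genes were not tested. FAU encodes a small-subunit protein fused to a ubiquitin-like protein and does not match the naming rule. It had 5523, 7096 and 6365 FPKM in HC, 4418, 5040 and 4464 FPKM in MC, and 3110.4, 5810 and 5671 FPKM in LC, with every HC library above every MC library. RPL36AL, a near copy of RPL36A whose symbol the rule does not take, had 1015, 1029 and 1020.1 FPKM in HC, 858, 1062 and 918 FPKM in MC, and 666, 1257 and 1305 FPKM in LC, with overlap among all diets. A list drawn up as ribosome partners outside the naming rule held 12 tested genes. In HC minus MC in the 9 libraries 0 of them rose and 1, COMMD6, fell, against 8.0% and 17.0% of all genes. At an unadjusted p under 0.05 limma gave 1 higher and 2 lower, against 12.8% and 26.4%. Fitted on the libraries numbered 2 and 3, this list had 4 higher and 1 lower in HC minus MC, against 11.1% and 17.6%. In MC minus LC it then had 0 higher and 6 lower, against 14.4% and 17.2%. In HC minus LC it had 2 higher and 5 lower, against 7.89% and 16.5%.

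Genes that assemble ribosomes followed another order. The list holds processing factors, snoRNP proteins and export factors of the nucleolus, and of its 77 tested genes 52 rose and 1 fell in MC minus LC, where the list's median was 0.67 on the log2 scale. In HC minus MC 0 rose and 55 fell (median -0.55), and in HC minus LC 4 rose and 7 fell (median 0.0056). Of all genes tested, 16.2% were higher and 17.1% lower in MC minus LC, 8.0% and 17.0% in HC minus MC, and 7.79% and 17.4% in HC minus LC. The libraries numbered 2 and 3 alone gave 49 higher and 3 lower in MC minus LC, against 14.4% and 17.2% of genes, 0 and 49 in HC minus MC, against 11.1% and 17.6%, and 3 and 7 in HC minus LC, against 7.89% and 16.5%. At an unadjusted p under 0.05, limma had 0 biogenesis genes higher and 62 lower in HC minus MC in the 9 libraries, against 12.8% and 26.4% of genes, and 1 and 60 in the libraries numbered 2 and 3, against 16.0% and 26.3%.

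LTV1, a factor for assembly and export of the small subunit, had 3.52, 2.59 and 3.84 FPKM in HC, 11.5, 12.3 and 13.02 FPKM in MC, and 3.25, 3.42 and 3.64 FPKM in LC. Its log2 change was 1.58 ± 0.13 in MC minus LC (adjusted p = 8.84e-06, limma) and -1.63 ± 0.13 in HC minus MC (adjusted p = 2.68e-05, limma). DDX21, a nucleolar helicase, had 12.3, 11.4 and 11.8 FPKM in HC, 32.0, 27.2 and 30.9 FPKM in MC, and 11.3, 12.3 and 14.5 FPKM in LC. GAR1, a protein of the snoRNPs that make pseudouridine, had 9.09, 10.2 and 9.63 FPKM in HC, 24.5, 24.0 and 24.2 FPKM in MC, and 8.76, 11.7 and 8.96 FPKM in LC. In all 3 genes the MC libraries stood far above the rest and HC overlapped LC.

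**Figure D5:**
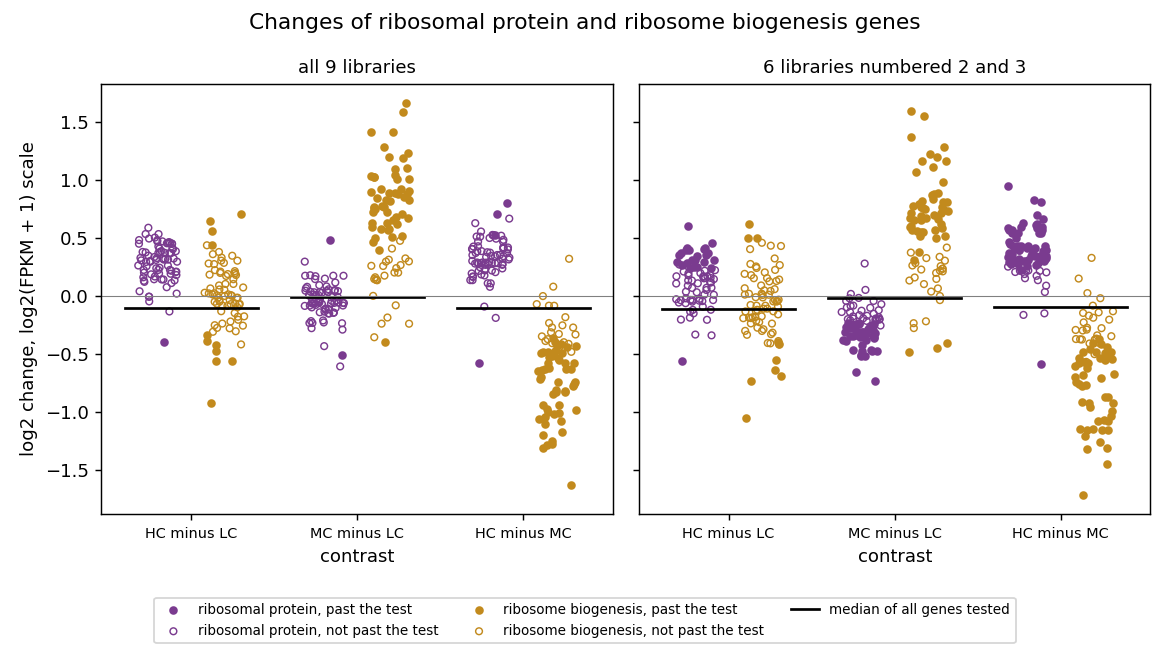
Log2 change of each ribosomal protein gene (purple) and each ribosome biogenesis gene (ochre) in the 3 contrasts, from limma on log2(FPKM + 1), in all 9 libraries (left) and the 6 numbered 2 and 3 (right). Filled points passed the adjusted threshold of 0.05, open points did not, and black lines mark the median of all genes tested; in HC minus MC 74 of 77 purple points lie above 0 in both panels, and no ochre point that passed does.

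Other parts of the translation machinery showed mixed orders. Of 35 initiation factors tested, 9 rose and 4 fell in MC minus LC (25.7% and 11.4%, against 16.2% and 17.1% of all genes), and 1 rose and 9 fell in HC minus MC (2.86% and 25.7%, against 8.0% and 17.0%). In HC minus LC 0 passed, against 7.79% and 17.4% of all genes, and limma gave 4 higher and 2 lower at an unadjusted p under 0.05, against 12.0% and 26.3%. EIF5B, which joins the subunits, had 13.7, 15.6 and 15.0 FPKM in HC, 26.9, 28.8 and 30.4 FPKM in MC, and 14.6, 16.5 and 15.5 FPKM in LC. Of 11 elongation and related factors tested, 2 rose and 3 fell in HC minus MC (18.2% and 27.3%, against 8.0% and 17.0% of all genes). EEF1G, a subunit of the complex that reloads elongation factor EEF1A, rose there with 1300, 1937 and 1688 FPKM in HC, 966, 1010 and 1154 FPKM in MC, and 880, 1284 and 1196 FPKM in LC (0.64 ± 0.20, adjusted p = 0.0390, limma). Without the libraries numbered 1, 5 of these 11 factors rose and 3 fell in HC minus MC (45.5% and 27.3%, against 11.1% and 17.6%).

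Mitochondrial ribosomal proteins, which serve the organelle's own ribosome, gave 13 higher and 1 lower of 73 in MC minus LC, 0 and 8 in HC minus MC, and 5 and 1 in HC minus LC, with medians of 0.25, -0.087 and 0.14. As shares these were 17.8% and 1.37%, 0% and 11.0%, and 6.85% and 1.37%, against 16.2% and 17.1%, 8.0% and 17.0%, and 7.79% and 17.4% of all genes. At an unadjusted p under 0.05 limma had 0 higher and 10 lower of them in HC minus MC, against 12.8% and 26.4% of all genes. In the libraries numbered 2 and 3 they gave 12 and 6 in MC minus LC (16.4% and 8.22%, against 14.4% and 17.2%). In HC minus MC they gave 6 and 11 (8.22% and 15.1%, against 11.1% and 17.6%). In HC minus LC they gave 10 and 9 (13.7% and 12.3%, against 7.89% and 16.5%). Their medians in these 6 libraries were 0.081, -0.059 and -0.00998 in that order. MRPL13 had 48.1, 52.6 and 53.9 FPKM in HC, 91.9, 83.4 and 84.3 FPKM in MC, and 36.4, 52.1 and 47.7 FPKM in LC. The subunits of oxidative phosphorylation encoded in the nucleus, also short and abundant transcripts, gave 3 higher and 1 lower of 59 in HC minus LC, 2 and 2 in MC minus LC, and 1 and 2 in HC minus MC. These subunits passed in at most 5.08% in either direction, against 7.79% and 17.4%, 16.2% and 17.1%, and 8.0% and 17.0% of all genes. In the libraries numbered 2 and 3 they gave 4 and 5 in HC minus LC (6.78% and 8.47%, against 7.89% and 16.5% of all genes). In MC minus LC they gave 2 and 23 (3.39% and 39.0%, against 14.4% and 17.2%). In HC minus MC they gave 18 and 3 (30.5% and 5.08%, against 11.1% and 17.6%). The medians in that order were -0.041, -0.20 and 0.19. Proteasome subunits gave 14 higher and 3 lower of 37 in MC minus LC (37.8% and 8.11%, against 16.2% and 17.1% of all genes). In HC minus MC they gave 2 and 11 (5.41% and 29.7%, against 8.0% and 17.0%). Of 29 genes of RNA polymerase I and its regulators, 5 rose and 5 fell in MC minus LC (17.2% each, near the share of all genes). In HC minus MC 2 rose and 7 fell (6.9% and 24.1%, against 8.0% and 17.0% of all genes). Of 11 genes of ribosome quality control and the p53 link, 3 rose and 1, MDM2, fell in MC minus LC (27.3% and 9.09%, against 16.2% and 17.1%).

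Markers of other cell types differed between the libraries beside these values. The 10 smooth muscle markers summed to 115 to 150 FPKM in HC, 1185 to 3666 FPKM in MC and 60.4 to 2423 FPKM in LC. MYH11, the smooth muscle myosin, had 4.39 to 6.89 FPKM in HC, 86.0 to 293 FPKM in MC and 2.41 to 253 FPKM in LC, with HC below every MC library and within the range of LC. ACTA2, the smooth muscle actin, had 25.1 to 32.4 FPKM in HC, 14.8 to 31.03 FPKM in MC and 9.19 to 23.02 FPKM in LC, with HC above every LC library and MC overlapping both. Beside these muscle sums, the members' share was 32.1% to 35.3% in HC and 28.4% to 30.8% in MC. In LC it was 26.9% in LC1 with a muscle sum of 2423 FPKM, and 32.4% in LC2 with 1300 FPKM. LC3 had the lowest muscle sum of all, 60.4 FPKM, and a share of 31.8%. The 14 leukocyte markers summed to 69.8 to 84.1 FPKM in HC, 51.7 to 61.4 FPKM in MC and 179 to 196 FPKM in LC, with PTPRC at 0.338 to 2.54 FPKM. The 9 fibroblast markers summed to 205 to 373 FPKM in HC, 193 to 409 FPKM in MC and 308 to 739 FPKM in LC. The 9 basal epithelial markers listed summed to 4333 to 6514 FPKM in HC, 5071 to 5847 FPKM in MC and 4004 to 6149 FPKM in LC. The 11 upper epithelial markers listed summed to 1293 to 2011 FPKM in HC, 1825 to 2229 FPKM in MC and 1353 to 1938 FPKM in LC. The 6 endothelial markers listed summed to 7.60 to 46.2 FPKM over the 9 libraries, and the 1 erythroid marker listed stayed at or under 1.62 FPKM. The part of these cell types in the members' levels was not tested.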

How the data were processed

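RNA sequencing of rumen epithelium gave 1 file per library. The deposited values are FPKM, a unit inferred from the tool that made them. The submitters' processing notes name Bowtie 1.2.0 and Cufflinks 2.2.1 as the tools that the authors ran. For genome build, annotation and strand, the choice was not given in the sources used here. Positions are those of the files, written counting from 1. The RefSeq table was used for names and chromosomes only. Names turned into dates by a spreadsheet were dropped and repeated names summed. A filter of 1 FPKM or more in 3 libraries or more kept 11879 genes, and 211 of them that some library did not list were dropped, which left 11668.

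Values as log2(FPKM + 1), a scale that understates changes of low genes, were fitted with limma 3.58.1 in R 4.3.3 as diet means, using its trend and robust options, two-sided. The fit of 9 libraries had 6 residual degrees of freedom and that of the 6 libraries numbered 2 and 3 had 3. Benjamini-Hochberg adjustment ran over all genes tested, with a threshold of 0.05. Ratios of paralogue to partner used exact permutation tests over libraries. The test of 3 diets took the ratio of between-diet to within-diet sums of squares, with only larger ratios counted as more extreme. Tests of pairs took the difference of means, two-sided. The same tests were run on the members' share and on the ratio of the subunits. The script was tested on simulated data.

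The members and gene lists were chosen with earlier results of these data known. Named members are the 10 highest, the 5 largest and 5 smallest changes per contrast, those that passed, the paralogues, the 5 most variable against the pool, and 8 chosen by role; most are given above. Lists name up to 4 genes per contrast that passed, by adjusted p. FAU and the marker genes were chosen by role. Results of 3 genes are not reported here by name. Alternatives changed the pseudocount, filter, scaling, moderation, weights, threshold and libraries used. No sequence is shown, since none was at hand. Figures were drawn with matplotlib 3.10.9 in Python 3.11.15.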

Additional observations from a re-analysis of the deposited data

How the results depend on the processing

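Counts of members past the test, which were 1 in HC minus LC, 2 in MC minus LC and 4 in HC minus MC, depended on the fit. In that order of contrasts they were 7, 2 and 16 with median-of-ratios scaling, and 4, 7 and 10 with quantile normalization. They were 12, 4 and 17 with the sum outside the mitochondrial genome made equal. Library quality weights, whose estimation stopped before it converged, gave 18, 16 and 58. With these weights 15 members rose and 3 fell in HC minus LC, against 16.8% and 33.7% of all genes tested. In MC minus LC 1 rose and 15 fell, against 21.9% and 26.0%. In HC minus MC 57 rose and 1 fell, against 21.7% and 34.8%. The counts were 0, 1 and 35 with only the 2 diets compared, and 24, 43 and 62 in the libraries numbered 2 and 3. With number 1 as a covariate they were 13, 4 and 21. The last 2 fits were chosen after seeing the data. In HC minus MC 34 rose and 1 fell with only the 2 diets compared, against 9.88% and 21.4% of genes. With the covariate 12 rose and 1 fell in HC minus LC, against 10.7% and 22.2%. In HC minus MC the covariate gave 20 higher and 1 lower, against 11.6% and 22.5%. HC minus LC gave 0 with a pseudocount of 5, with no filter and with a mean of at least 5 FPKM, 2 scaled to the members, and 3 at a threshold of 0.1. HC minus MC gave 12 at a threshold of 0.1. Without trend or robust moderation 3 rose in HC minus LC, against 7.82% of genes, and 0 fell, against 17.1%. In HC minus MC that fit gave 6 higher and 1 lower, against 7.79% and 17.1%. Median-of-ratios scaling had 15 higher and 1 lower in HC minus MC, against 12.2% and 12.0%. Quantile normalization had 8 and 2 there, against 13.3% and 11.1%, and the equal sum 15 and 2, against 4.72% and 19.9%. In HC minus LC median-of-ratios scaling gave 7 and 0, against 11.7% and 12.0%. Quantile normalization gave 3 and 1, against 12.7% and 9.92%, and the equal sum 11 and 1, against 5.58% and 17.4%. In MC minus LC, in the same order of scalings, they were 1 and 1, 3 and 4, and 1 and 3. The shares of all genes were 17.0% and 17.2%, 18.6% and 18.0%, and 14.8% and 13.2%. With 1 library left out the counts ran from 0 to 1, 0 to 29 and 1 to 44, and the highest of the last 2 contrasts came without LC1. Without LC1 0 members rose and 29 fell in MC minus LC, against 15.9% and 18.8% of genes. In HC minus MC 43 then rose and 1 fell, against 11.3% and 23.5%. With 1 library left out the median member change ran from 0.053 to 0.44, -0.28 to 0.087 and 0.28 to 0.40. Its sign thus held in HC minus LC and HC minus MC and not in MC minus LC.

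Relative to the pool the counts were 2, 3 and 4. They were 12, 26 and 13 with quality weights, 22, 14 and 24 in the libraries numbered 2 and 3, 12, 7 and 9 with number 1 as a covariate, 7, 6 and 8 at a threshold of 0.1, and 1, 0 and 2 without trend or robust moderation. HC minus LC gave 1 with no filter and with only the 2 diets compared. With 1 library left out they ran from 0 to 8, 0 to 4 and 1 to 8. Shares of all genes relative to the pool are given above only for the 9 libraries and for the libraries numbered 2 and 3. The pool counts of the other fits, here and below, therefore show only how far the count depends on the fit.

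Without the 5 highest members the diets' mean ratios of large to small subunit differed by -0.0266 in HC minus LC and -0.0178 in HC minus MC. With them the differences were 0.00707 and 0.0138. With 1 library left out, the difference in share ran from 1.76 to 4.52 points in HC minus LC, -2.63 to 0.130 in MC minus LC and 3.68 to 5.26 in HC minus MC. The causes were not tested.

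The replicate block gave 4 calls in HC minus LC and 12 in HC minus MC, and 9, 6 and 9 relative to the pool. On the deposited scale 3 rose and 1 fell in HC minus LC, against 10.1% and 22.1% of genes. In HC minus MC 11 rose and 1 fell, against 11.1% and 22.1%. Libraries of the same number did not all deviate together. The correlations of their deviations were 0.29 to 0.45 among the libraries numbered 1, -0.0759 to 0.197 among those numbered 2 and 0.0674 to 0.504 among those numbered 3, so the numbers were not taken to pair the libraries. What the libraries numbered 1 share was not tested.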
